A study of Mus musculus with 6 samples.

Results

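The genes described here lie next to the centromeric ends of the mouse autosomes. They were taken as all genes on autosomes 1 to 19 whose annotated start lies below 10 Mb in the mm9 build, with at least 60 raw counts summed over the 6 libraries. Of 1380 autosomal genes below 10 Mb with at least 1 count, 922 met the count minimum and the other 458 had 1 to 59 counts. The gene table holds 26982 genes in all, each with at least 1 count, so annotated genes without a read are not in it. The members were set against the remaining 15833 autosomal genes that met the same minimum. The rule uses position and summed depth only, so it does not see which group a count came from.

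RNA was sequenced from mouse 2-cell embryos in 3 groups of 2 libraries each. In the Suv39h1wt group, mRNA of a wild-type form of Suv39h1 had been microinjected into zygotes at 0.6 µg/µl, 18 h after the ovulation-inducing hormone hCG. In the Suv39h1mut group, mRNA of a mutant form was injected at the same time and concentration; its mutation is not stated. The Non-injected group received no mRNA and no injection, so it differs from both other groups in the injection itself as well as in the mRNA. Embryos were cultured in KSOM medium, and the strain and age of the mice are not given in the sources used here. Each library was amplified from 2 ng of total RNA of whole embryos with random and poly-T primers. Whether both libraries of a group stem from different embryo pools is not stated, and p-values reflect the spread between these libraries alone, which may be technical.

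All mouse autosomes are acrocentric, with the centromere at the low-coordinate end of the assembled sequence. The centromere itself is built on minor satellite repeats, and the pericentric block between it and the first genes consists of major satellite repeats, for which the reference assembly holds a gap. SUV39H1 and its paralogue SUV39H2 methylate histone H3 at lysine 9 there; HP1 proteins bind the mark, and the SUV420H enzymes then methylate histone H4 at lysine 20. This heterochromatin is remodelled after fertilisation, and major satellites are transcribed around the 2-cell stage. In Drosophila, a gene moved next to such a block can be silenced in some cells, an effect that depends on the fly counterpart of SUV39H1. The genes nearest the block are the assembled sequence closest to where the injected enzyme is known to act.

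Several genes of the heterochromatin machinery are themselves members. Upstream sequences are shown for Suv39h2 and Suv420h1, because they encode enzymes that write the pericentric marks, and for Men1, Ubxn1 and Dpf2, because they were among the members with the smallest p and had counts in every library, a choice made after their values were seen. Each is the 250 bases before an annotated start, 5′ to 3′ on the gene's own strand, from RefSeq on GRCm38.p6, a later build than the mm9 build of the gene table. Men1 had 3 such windows and Suv420h1 had 2, of which the first listed is shown. Capitals mark the GC box (GGGCGG or its reverse complement CCGCCC) and the CCAAT box (CCAAT or its reverse complement ATTGG). The windows are chr2:3474987-3475236 (minus strand) for Suv39h2, chr19:3767171-3767420 (plus) for Suv420h1, chr19:6334729-6334978 (plus) for Men1, chr19:8871298-8871547 (plus) for Ubxn1 and chr19:5912872-5913121 (minus) for Dpf2.
Suv39h2: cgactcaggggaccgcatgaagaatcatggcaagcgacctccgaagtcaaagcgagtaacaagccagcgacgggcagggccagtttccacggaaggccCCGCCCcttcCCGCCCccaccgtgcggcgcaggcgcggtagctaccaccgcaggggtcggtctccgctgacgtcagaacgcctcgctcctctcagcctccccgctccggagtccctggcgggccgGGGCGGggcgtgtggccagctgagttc
Suv420h1: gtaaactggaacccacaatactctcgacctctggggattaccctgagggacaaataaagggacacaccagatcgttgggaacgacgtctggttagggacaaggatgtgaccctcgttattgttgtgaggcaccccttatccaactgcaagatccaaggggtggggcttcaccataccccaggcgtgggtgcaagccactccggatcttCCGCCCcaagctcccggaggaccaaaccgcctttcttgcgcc
Men1: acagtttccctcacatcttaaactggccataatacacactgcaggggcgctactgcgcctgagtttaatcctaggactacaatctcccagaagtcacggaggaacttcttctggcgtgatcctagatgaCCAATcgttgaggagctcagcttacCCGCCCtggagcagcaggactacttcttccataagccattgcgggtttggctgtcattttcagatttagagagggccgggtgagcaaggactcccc
Ubxn1: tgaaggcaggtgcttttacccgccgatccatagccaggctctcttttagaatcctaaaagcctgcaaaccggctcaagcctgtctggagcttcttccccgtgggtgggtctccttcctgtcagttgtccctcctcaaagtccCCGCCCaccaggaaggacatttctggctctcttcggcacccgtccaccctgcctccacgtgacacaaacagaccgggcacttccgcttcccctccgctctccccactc
Dpf2: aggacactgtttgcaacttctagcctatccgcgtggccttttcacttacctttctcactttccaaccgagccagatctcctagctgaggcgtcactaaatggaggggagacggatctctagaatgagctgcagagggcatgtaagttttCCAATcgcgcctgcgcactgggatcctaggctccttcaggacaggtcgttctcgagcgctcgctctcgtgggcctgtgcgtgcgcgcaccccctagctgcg
The Suv39h2 window held 3 GC boxes, no CCAAT box and 27 CpG dinucleotides at 69.6% G+C. Suv420h1 and Ubxn1 held 1 GC box each, Dpf2 held 1 CCAAT box, and Men1 held 1 of both with the fewest CpG dinucleotides of the 5, 8 at 52.0% G+C. The window of Suv420h2, a further member that encodes such an enzyme, is not shown. It held 0 GC boxes, 2 CCAAT boxes and 13 CpG dinucleotides at 53.6% G+C. For scale, 33.0% of the 31396 RefSeq windows of this length on the autosomes held a GC box and 33.7% a CCAAT box, so neither is particular to these genes. RefSeq windows were matched for 615 of the 922 members (66.7%), too few for promoter features to be compared between the members and the remaining genes.

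The libraries held between 33497519 and 48572265 counts over genes, and 828 to 897 of the 922 members had at least 1 count in a library. Summed levels of 6 detected 2-cell stage markers were 569 and 733 CPM (counts scaled to library size) in Suv39h1wt, 489 and 427 CPM in Suv39h1mut and 268 and 300.4 CPM in Non-injected libraries, and 11 oocyte and zygote markers summed to between 2056 and 4122 CPM. The 2-cell stage sum was higher in all 4 injected libraries than in both Non-injected ones, and its part in the results was not tested. Of the other cells looked for, 12 cumulus and granulosa markers summed to at most 16.1 CPM, 5 sperm markers to at most 2.09 CPM and 5 blood markers to at most 22.1 CPM. Suv39h1 itself lies on chromosome X and is no member. It stood at 51.2 and 38.0 CPM in Suv39h1wt, 28.0 and 41.5 CPM in Suv39h1mut and 41.3 and 35.0 CPM in Non-injected libraries, so the groups overlapped and the injected mRNA is not seen as an excess over the spread. The spread between libraries of a group was wide, with a biological coefficient of variation of 0.876 over all genes in edgeR, and a median of 0.828 for single members against 0.783 for the remaining autosomal genes. In the comparison of Suv39h1wt with Suv39h1mut embryos and in those of either injected group with Non-injected embryos, edgeR's quasi-likelihood test with Benjamini-Hochberg adjustment called 0 of the 922 members and 0 of all 17512 genes tested (0%) at an adjusted p of 0.05. At an unadjusted p under 0.05 it had 30, 52 and 37 members, where 2.78%, 6.15% and 4.46% of all genes tested were. DESeq2 called 5, 12 and 9 members (0.6%, 1.47% and 1.13% of those it tested), where it called 0.316%, 1.73% and 0.37% of all genes. Members are therefore described by their values, as log2 fold changes ± SE from edgeR, and none is said to have changed.

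The ends of the autosomes were populated like the rest of the genome at this stage. The first gene with a count on an autosome started between 3000282 and 3508030, and detected genes stood at 7.06 per Mb from there to 10 Mb, against 6.94 per Mb over the rest of the autosomes. That near equality hides a strong difference between chromosomes. Chromosome 19 alone held 192 of the members (20.8%), at 28.0 per Mb against 6.90 per Mb over its remainder, and without it the density beside the centromeres was 5.90 per Mb. Chromosome 11 held 112 members, chromosome 7 held 91 and chromosome 16 held 55, whereas chromosomes 3 and 14 held 14 and 15. On 5 autosomes (7, 11, 12, 16 and 19) the end was denser than the remainder, and these hold 493 of the members; the other 14 hold 429.

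**Figure D1:**
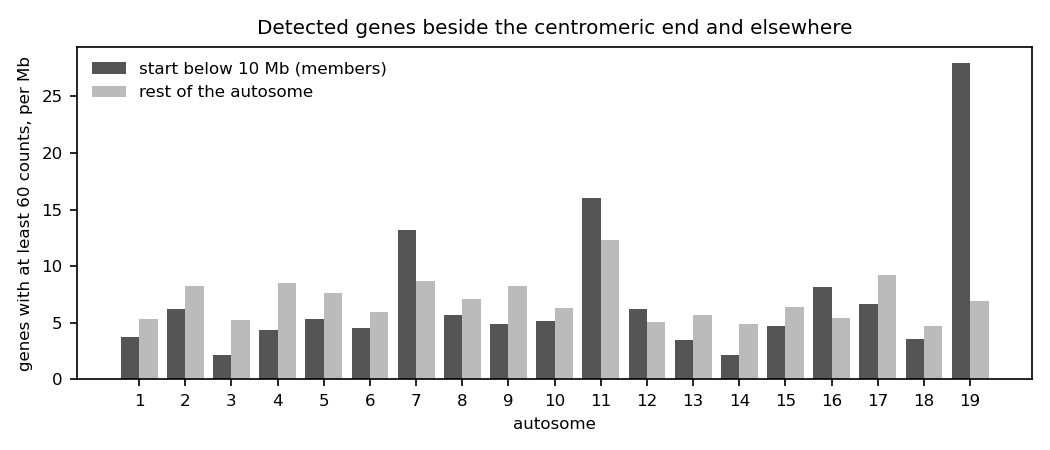
Detected genes per Mb for each autosome, with the 922 genes that start below 10 Mb as dark bars and the remaining autosomal genes as light bars; both need at least 60 counts over the 6 libraries. The end of chromosome 19 reaches 28.0 genes per Mb against 6.90 over its remainder, and the ends of chromosomes 3 and 14 hold the fewest.

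By gene type, 784 members (85.0%) were protein-coding, against 86.4% of the remaining autosomal genes, and 48 were lincRNAs, 42 pseudogenes, 19 antisense transcripts and 8 miRNAs. Their levels were also close to those elsewhere. The median member stood at 4.57 CPM and 2.90 CPM per kb of transcript, against 5.28 CPM and 3.36 CPM per kb for the remaining genes. In all, 707 members (76.7%) reached 1 CPM, 327 (35.5%) reached 10 CPM and 64 (6.94%) reached 100 CPM, against 77.2%, 39.4% and 6.83% elsewhere. At the 10 Mb limit, the 32 members that start within the last 0.5 Mb inside it had library medians of 3.43 to 6.36 CPM, and the 51 genes within the first 0.5 Mb outside had 2.79 to 4.27 CPM. At the count limit, 27 members had 60 to 69 counts and 24 genes left out had 50 to 59.

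Together the members gave close to the same share of autosomal counts in every library. The share was 4.95% and 4.93% in Suv39h1wt, 4.85% and 4.83% in Suv39h1mut and 4.88% and 4.70% in Non-injected libraries. Group means were 4.94% ± 0.0134, 4.84% ± 0.0143 and 4.79% ± 0.129 (SD, n = 2 each), and the Non-injected libraries spanned most of the range. For the genes that start below 5 Mb alone, the share was 1.43% and 1.34% in Suv39h1wt, 1.47% and 1.36% in Suv39h1mut and 1.69% and 1.56% in Non-injected libraries. Both Non-injected libraries were thus above all 4 injected ones with the limit at 5 Mb. Below 4 Mb the groups overlapped, at 0.916% and 0.771% in Suv39h1wt, 0.923% and 0.794% in Suv39h1mut and 1.06% and 0.828% in Non-injected libraries. From 4 to 6 Mb each Non-injected library was below both injected libraries of the same replicate number. The order therefore depended on the limit chosen. With 2 libraries a group no exact permutation test of a single share can reach 0.05, so none is given. In bulk RNA of whole embryos, fewer cells that express a gene and less of its RNA per cell cannot be told apart.

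The 5 members with the most counts, Dhtkd1, Yap1, Mark2, Dbf4 and Tab2, held a minor part of that share, which without them was 4.0% in Suv39h1wt, 3.98% in Suv39h1mut and 4.18% in Non-injected libraries. Dhtkd1, a mitochondrial dehydrogenase subunit of lysine breakdown (chromosome 2, 5817161 to 5863838), was the member with the most counts. It stood at 1619 and 2660 CPM in Suv39h1wt, 1521 and 2452 CPM in Suv39h1mut and 773 and 1069 CPM in Non-injected libraries. All 4 injected libraries were above both Non-injected ones, with log2 fold changes of 1.22 ± 0.48 for Suv39h1wt and 1.11 ± 0.48 for Suv39h1mut against Non-injected embryos, and its interval overlaps the antisense gene Gm13267. Yap1, the transcriptional coactivator that the Hippo pathway holds in check, followed at 1806 and 687 CPM in Suv39h1wt, 1573 and 824 CPM in Suv39h1mut and 965 and 670 CPM in Non-injected libraries. In Yap1 the number 1 library was the higher of each group.

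Mark2, a kinase that sets cell polarity through microtubules, showed the reverse order of libraries. It was at 111 and 1611 CPM in Suv39h1wt, 247 and 725 CPM in Suv39h1mut and 162 and 1032 CPM in Non-injected libraries, so the number 2 library was higher in every group by more than any difference between groups. Rfpl4, a RING-finger gene known from oocytes, was at 1007 and 208 CPM in Suv39h1wt, 698 and 176 CPM in Suv39h1mut and 263 and 120 CPM in Non-injected libraries, with the number 1 library higher each time. Per length, the 10 highest members were led by the annotated miRNA locus mmu-mir-2134-4, a feature of 0.057 kb at 4202 CPM per kb whose value also went with library number, and then Dhtkd1, Yap1, Mark2, Tpd52, Rb1cc1, Eif4enif1, Wac, Gm16869 and Rfpl4, from 802 down to 246 CPM per kb. Wac, an adaptor for ubiquitination of histone H2B, was the steadiest of them, at 185 and 227 CPM in Suv39h1wt, 248 and 218 CPM in Suv39h1mut and 213 and 181 CPM in Non-injected libraries.

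The genes closest to the satellite blocks can be followed one by one. On chromosome 9 the first gene with a count is the lincRNA Gm16869 at 3000282, which overlaps 12 further short gene models up to 3038316. Since they overlap, reads cannot be assigned to one of them with certainty, and the 13 were summed. The sum was 30105 and 4054 counts in Suv39h1wt, 25748 and 8719 counts in Suv39h1mut and 40990 and 6516 counts in Non-injected libraries. This is 578 and 122 CPM in Suv39h1wt, 493 and 184 CPM in Suv39h1mut and 1047 and 199.6 CPM in Non-injected libraries, with the number 1 library higher in every group. These 13 gene models made up 18.2% and 9.43% of the member counts of chromosome 9 in Suv39h1wt, 16.6% and 12.2% in Suv39h1mut and 43.3% and 16.1% in Non-injected libraries.

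Satellite transcripts were counted by the authors in a separate table that has columns for the 4 injected libraries, so they are compared between Suv39h1wt and Suv39h1mut alone. The major satellite GSAT_MM had 96665 and 15498 counts in Suv39h1wt and 83478 and 26381 counts in Suv39h1mut libraries, or 3333 and 892 CPM of repeat counts in Suv39h1wt against 2124 and 1081 CPM in Suv39h1mut libraries. The order of the 4 libraries was that of the summed chromosome 9 end, with number 1 above number 2 in both groups. The minor satellite SYNREP_MM had 1666 and 2374 counts in Suv39h1wt against 2062 and 157 counts in Suv39h1mut libraries. Log2 fold changes were 0.40 ± 0.73 for GSAT_MM and 1.72 ± 0.92 for SYNREP_MM, with an adjusted p of 0.993 for both in edgeR's quasi-likelihood test over 1082 families, of which 0 passed (0%) and 27 had an unadjusted p under 0.05. Without Suv39h1wt replicate 1 the GSAT_MM value was -0.90, without Suv39h1wt replicate 2 it was 1.06, and without Suv39h1mut replicate 2 it was -0.0048. SYNREP_MM lay between 0.89 without Suv39h1mut replicate 2 and 3.88 without Suv39h1mut replicate 1. With library sizes from the gene table GSAT_MM was at 0.11 and SYNREP_MM at 0.99.

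On each autosome the first member at 10 CPM or more was followed in the same way. Sfi1, whose protein binds centrin at the centrosome, starts at 3031853 on chromosome 11. It stood at 104 and 136 CPM in Suv39h1wt, 86.4 and 177 CPM in Suv39h1mut and 196 and 412 CPM in Non-injected libraries. Both Non-injected libraries were above all injected ones, and the log2 fold changes against them were -1.35 ± 0.54 for Suv39h1wt and -1.21 ± 0.54 for Suv39h1mut. The Sfi1 interval also overlaps Drg1, a pseudogene and an antisense gene. Xab2, a splicing and repair factor that starts at 3608421 on chromosome 8, had the same order. It stood at 5.35 and 19.9 CPM in Suv39h1wt, 4.17 and 20.6 CPM in Suv39h1mut and 36.0 and 53.4 CPM in Non-injected libraries, with log2 fold changes of -1.83 ± 0.88 for Suv39h1wt and -1.85 ± 0.88 for Suv39h1mut, and its interval overlaps Camsap3.

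Cul2, a scaffold of a ubiquitin ligase at 3382986 on chromosome 18, also had both Non-injected libraries on top, by a small margin, at 13.5 and 16.3 CPM in Suv39h1wt, 15.4 and 5.51 CPM in Suv39h1mut and 20.1 and 17.4 CPM in Non-injected libraries. Of the 19 first genes only Sfi1, Xab2 and Cul2 had this order. In each single comparison with Non-injected embryos, Sfi1, Xab2 and Cul2 were also the only first genes that were lower without overlap. Over all genes tested, 17.2% were lower without overlap in Suv39h1wt and 16.3% in Suv39h1mut than in Non-injected libraries. The share of all genes that were lower in both comparisons at once was not counted. Lypla1, at 4797869 on chromosome 1, had the opposite order, at 34.1 and 32.2 CPM in Suv39h1wt, 37.4 and 57.7 CPM in Suv39h1mut and 21.0 and 31.0 CPM in Non-injected libraries. Nmt2 and Gdi2 had neither order. Nmt2, an N-myristoyltransferase that starts at 3201484 on chromosome 2, had 36.7 and 47.4 CPM in Suv39h1wt, 35.4 and 22 CPM in Suv39h1mut and 35.0 and 21.2 CPM in Non-injected libraries. Gdi2, an inhibitor of Rab GTPases at 3537321 on chromosome 13, was higher in each injected library than in the Non-injected library of the same number, at 215 and 79.6 CPM in Suv39h1wt, 240 and 85.6 CPM in Suv39h1mut and 122 and 44.5 CPM in Non-injected libraries. Over the 19 first genes, log2 fold changes for Suv39h1wt vs Suv39h1mut ran from -0.97 for Mrpl21 to 1.18 for the pseudogene Gm15772, and 0 of the 19 passed in any comparison.

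Of a list of 46 genes of pericentric heterochromatin and the centromere, 5 are members. Suv39h2, the paralogue of the injected enzyme's gene (chromosome 2, 3373087 to 3392303), stood at 137 and 66.8 CPM in Suv39h1wt, 140 and 62.3 CPM in Suv39h1mut and 85.2 and 42.3 CPM in Non-injected libraries. Library by library the Non-injected value was the lowest of its number, yet the groups overlapped, as its interval does with Dclre1c and an antisense gene, with a log2 fold change of 0.01 ± 0.59 between the injected groups and of 0.68 ± 0.60 and 0.67 ± 0.60 against Non-injected embryos. Suv420h1, which encodes a histone H4 lysine 20 methyltransferase (chromosome 19, 3767421 to 3818303), was at 54.9 and 29.6 CPM in Suv39h1wt, 28.2 and 32.0 CPM in Suv39h1mut and 59.7 and 76.1 CPM in Non-injected libraries. Both Non-injected libraries were the highest, and the log2 fold change was -0.68 ± 0.51 for Suv39h1wt and -1.17 ± 0.52 for Suv39h1mut against them.

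Incenp, the scaffold of the chromosomal passenger complex at the inner centromere (chromosome 19, 9946787 to 9974023), was at 87.7 and 135 CPM in Suv39h1wt, 64.1 and 77.9 CPM in Suv39h1mut and 130 and 156 CPM in Non-injected libraries. Suv39h1mut libraries were the lowest, with log2 fold changes of 0.65 ± 0.45 for Suv39h1wt vs Suv39h1mut and -1.01 ± 0.45 for Suv39h1mut vs Non-injected embryos. Dnmt3a, a de novo DNA methyltransferase, had overlapping groups at 85.9 and 48.9 CPM in Suv39h1wt, 117 and 76.4 CPM in Suv39h1mut and 93.1 and 76.1 CPM in Non-injected libraries, and its interval overlaps an antisense gene. Suv420h2, the sister gene of Suv420h1, was low, at 37 to 116 counts in a library. Of the 5, 0 passed in any comparison, and their median was 0.01 between Suv39h1wt and Suv39h1mut, -0.33 between Suv39h1wt and Non-injected embryos and 0.19 between Suv39h1mut and Non-injected embryos. Over all genes tested the medians were -0.01, 0.02 and 0.02 in these comparisons, and 36 listed genes elsewhere on the autosomes had 0.06, 0.08 and -0.28.

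**Figure D2:**
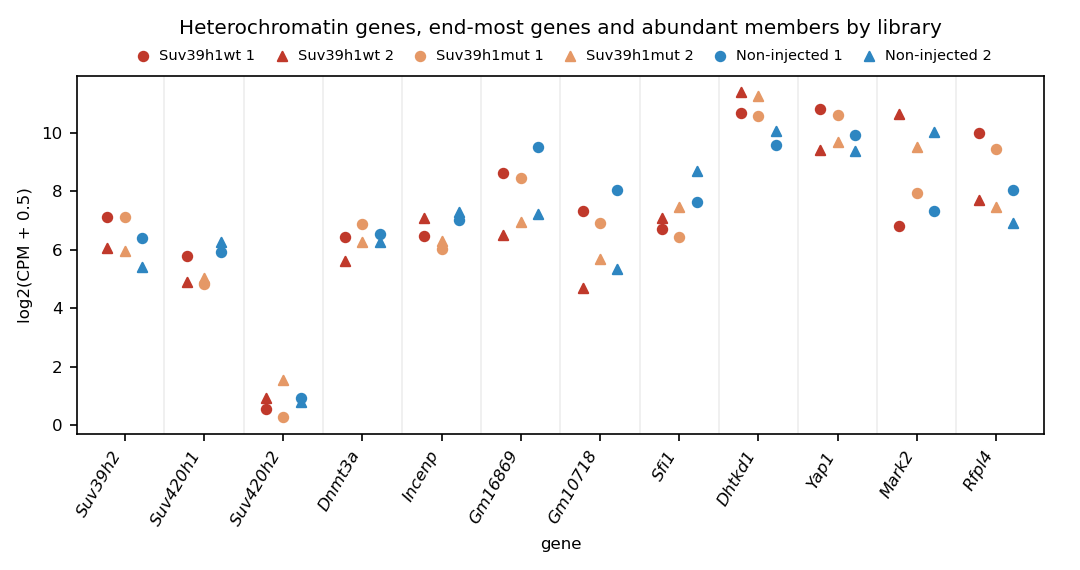
Levels in log2(CPM + 0.5) of the 5 heterochromatin and centromere members, 3 end-most genes and 4 abundant members, with 1 point per library, circles for number 1 and triangles for number 2. In Suv39h2, Gm16869, Gm10718 and Rfpl4 the circle lies above the triangle in every group, and in Mark2 below it; in Sfi1 and Suv420h1 both Non-injected points lie above all injected points.

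Other groups of members were described by lists. The lists were chosen with earlier results of these data known and are no sample of the autosomal genes. Of all 16755 autosomal genes at the count minimum, 922 are members. How many genes of a list are members therefore says nothing about where such genes lie. The listed genes elsewhere are the rest of the same lists. Of 49 chromatin and transcription regulators 35 are members, and their median log2 fold change was 0.20 between the injected groups, and -0.01 for Suv39h1wt and -0.17 for Suv39h1mut against Non-injected embryos. The 10 listed regulators elsewhere on the autosomes had medians of 0.12, -0.18 and -0.53 in these comparisons. Gata3, a transcription factor of the early trophectoderm, was at 3.45 and 3.46 CPM in Suv39h1wt, 2.85 and 1.44 CPM in Suv39h1mut and 0.281 and 0.276 CPM in Non-injected libraries, so all injected libraries were above both Non-injected ones, the Non-injected ones resting on 11 and 9 counts. Its log2 fold changes against Non-injected embryos were 3.62 ± 1.5 and 2.93 ± 1.46. Hey1, a Notch target, stood at 30.8 and 36.1 CPM in Suv39h1wt, 35.4 and 9.0 CPM in Suv39h1mut and 8.38 and 13.5 CPM in Non-injected libraries.

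Imprinted genes cluster at the ends of chromosomes 6 and 7, and 9 of a list of 35 are members, with medians of 0.03, 0.28 and 0.29 in the same order of comparisons. The 15 listed genes elsewhere on the autosomes had medians of -0.002, 0.66 and 0.24. Peg3, a paternally expressed zinc-finger gene (chromosome 7, 6656603 to 6683132), was at 44.2 and 54.7 CPM in Suv39h1wt, 21.5 and 15.4 CPM in Suv39h1mut and 24.1 and 6.10 CPM in Non-injected libraries. Both Suv39h1wt libraries were above all 4 others, with log2 fold changes of 1.42 ± 0.70 against Suv39h1mut and 1.71 ± 0.71 against Non-injected embryos. Its neighbour Usp29 did not share that order, at 31.1 and 50.3 CPM in Suv39h1wt, 37.2 and 30.7 CPM in Suv39h1mut and 69.9 and 48.6 CPM in Non-injected libraries. Sgce, which encodes a sarcoglycan, had 11 and 1 counts in Suv39h1wt, 30 and 331 in Suv39h1mut and 11 and 34 in Non-injected libraries, a difference carried by 1 library. Sgce met the count minimum only through Suv39h1mut, as did the listed member Pon2.

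Of 21 translation and ribosome genes 11 are members, with medians of 0.52, 0.00 and -0.61. Among these members, Mrpl11 met the count minimum only through Suv39h1mut. The 10 listed genes elsewhere on the autosomes had medians of 0.42, -0.29 and -0.67. Rps20, a protein of the small ribosomal subunit, stood at 83.9 and 172 CPM in Suv39h1wt, 47.1 and 77.7 CPM in Suv39h1mut and 94.6 and 143 CPM in Non-injected libraries, so both Suv39h1mut libraries were the lowest. Fau, which encodes another such protein fused to a ubiquitin-like part, stood at 22.4 and 63.5 CPM in Suv39h1wt, 7.2 and 23.9 CPM in Suv39h1mut and 39.8 and 46.1 CPM in Non-injected libraries. For 3 listed nuclear long noncoding RNAs elsewhere on the autosomes the medians were 1.33, 0.31 and -0.43. The 4 nuclear long noncoding RNAs among the members had medians of -0.13, 0.26 and 0.52. Malat1, a nuclear speckle RNA, was the most abundant at 157 and 128 CPM in Suv39h1wt, 177 and 105 CPM in Suv39h1mut and 165 and 48.3 CPM in Non-injected libraries, with overlapping groups.

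Neat1, the scaffold RNA of paraspeckles, was at 17.4 and 39.7 CPM in Suv39h1wt, 65.7 and 43.0 CPM in Suv39h1mut and 34.2 and 19 CPM in Non-injected libraries, with both Suv39h1mut libraries on top. The list of LIF and interleukin-6 family cytokines and receptors, which also takes in the growth hormone receptor gene Ghr, had 5 members. Their medians were -0.97, -0.89 and -0.37 from few counts, against -0.08, 0.35 and 0.30 for 3 listed genes elsewhere on the autosomes. Lifr, the LIF receptor, was the best detected of the 5, at 502 and 197 counts in Suv39h1wt, 343 and 94 in Suv39h1mut and 225 and 55 in Non-injected libraries. Its log2 fold changes lay on the other side of 0 from the medians of the 5, at 0.86 ± 1.08, 1.07 ± 1.09 and 0.20 ± 1.08. Maternal oocyte transcripts had 3 members, with medians of -0.19, 0.28 and -0.11, against 0.01, 0.83 and 0.93 for 29 listed genes elsewhere on the autosomes. The oocyte gene Nlrp2 stood at 18.8 and 9.07 CPM in Suv39h1wt, 21.7 and 10.1 CPM in Suv39h1mut and 10.8 and 11.6 CPM in Non-injected libraries. The list of the 2-cell programme had no member. In every list 0 members passed in any comparison.

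The first comparison sets Suv39h1wt against Suv39h1mut embryos, which share the injection and differ in the form of the mRNA. The members as a whole did not move away from the other autosomal genes: their median log2 fold change was 0.00 (quartiles -0.72 and 0.62), against -0.01 for the remaining autosomal genes. Of the 922 members 461 were above 0, where 49.3% of all genes tested were. In edgeR's quasi-likelihood test 0 of 922 members passed an adjusted p of 0.05 (0% of all 17512 genes tested), with a smallest adjusted p of 1. At an unadjusted p under 0.05 there were 30 members (3.25%), against 2.78% of all genes; 14 were higher (background 1.41%) and 16 lower (background 1.37%), and with the replicate number as a block there were 39 (background 3.99%). Both Suv39h1wt libraries were above both Suv39h1mut libraries in 105 members (background, the share of all genes tested, 12.3%) and below them in 132 (background 14.9%). DESeq2 called 5 of the 834 members it tested (0.6%, background 0.316%), with Prkcc and Gm11981 higher (background 0.19%) and Men1, 4930481A15Rik and Zfp804b lower (background 0.126%).

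Among the 5 members with the smallest p on the lower side, Men1 and Mpp7 had counts in all 6 libraries. Men1 encodes menin, a scaffold of complexes that methylate histone H3 at lysine 4 (chromosome 19, 6334979 to 6340891). It had 0.748 and 0.603 CPM in Suv39h1wt, 6.57 and 13.7 CPM in Suv39h1mut and 8.28 and 2.05 CPM in Non-injected libraries, from 39 and 20, 343 and 648, and 324 and 67 counts. The Suv39h1wt libraries lay below all others, with a log2 fold change of -3.90 ± 1.17 against Suv39h1mut and -2.93 ± 1.13 against Non-injected embryos. In the authors' deposited table its log2 fold change was -2.67. Mpp7, which encodes a scaffold of cell junctions (chromosome 18, 7347960 to 7626861), had the same order, at 0.153 and 0.241 CPM in Suv39h1wt, 2.16 and 2.85 CPM in Suv39h1mut and 3.50 and 11 CPM in Non-injected libraries. Its log2 fold change was -3.66 ± 1.31 against Suv39h1mut and -5.19 ± 1.40 against Non-injected embryos.

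The other 3 on the lower side rested on few reads in Suv39h1wt. Pcx, which encodes pyruvate carboxylase, had 5 and 0 counts in Suv39h1wt, 83 and 171 in Suv39h1mut and 99 and 53 in Non-injected libraries, and its interval holds Lrfn4. 4930481A15Rik had 2 and 0 counts in Suv39h1wt, 213 and 241 in Suv39h1mut and 0 and 0 in Non-injected libraries. It was thus seen almost only in the Suv39h1mut libraries, although it overlaps Drap1 and a pseudogene, which bear on how its reads were assigned. Zfp804b, a zinc-finger gene, had 16 and 0 counts in Suv39h1wt, 74 and 827 in Suv39h1mut and 17 and 4 in Non-injected libraries, so most of its difference came from 1 library. Both 4930481A15Rik and Zfp804b met the count minimum only through Suv39h1mut.

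On the higher side the Suv39h1wt libraries differed widely from each other. Prkcc, which encodes the gamma form of protein kinase C (chromosome 7, 3303640 to 3330714), had 1.07 and 31.3 CPM in Suv39h1wt, 0.517 and 0.0422 CPM in Suv39h1mut and 5.14 and 11.5 CPM in Non-injected libraries. The Suv39h1mut libraries were the lowest, and Suv39h1wt and Non-injected libraries overlapped, with a log2 fold change of 5.83 ± 1.73 for Suv39h1wt vs Suv39h1mut. Ccs, which encodes the copper chaperone of superoxide dismutase, had 1.53 and 36.4 CPM in Suv39h1wt, 0.0574 and 1.2 CPM in Suv39h1mut and 4.78 and 1.41 CPM in Non-injected libraries, with a log2 fold change of 4.91 ± 1.75. In both Prkcc and Ccs the number 2 library of Suv39h1wt was far above the number 1 library. Without Suv39h1wt replicate 2 the log2 fold change was 1.93 for Prkcc and 1.28 for Ccs, and without Suv39h1mut replicate 2 it was 8.32 for Ccs.

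Ankrd13d, an ankyrin-repeat gene, was the exception, with 2.99 and 6.18 CPM in Suv39h1wt, 0.0957 and 0.253 CPM in Suv39h1mut and 0.409 and 1.72 CPM in Non-injected libraries, and a log2 fold change of 4.69 ± 1.70. Gm11981, a noncoding transcript, had 401 counts in Suv39h1wt replicate 2 and 0 in the other Suv39h1wt library and both Suv39h1mut libraries. Its mean in Suv39h1wt was at least 100.1-fold higher than a floor of 3 counts per library in Suv39h1mut, and without Suv39h1wt replicate 2 its log2 fold change was 0. Gm11981 met the count minimum only through that library. Among the 58 genes called in the authors' deposited table were 5 members, with 14950 genes tested there (0.388% called). Beside Men1, the authors' deposited table called 4930481A15Rik at a log2 fold change of -3.09, Leng1 at 2.24, Ccs at 2.74 and Ankrd13d at 2.59.

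The next comparison sets Suv39h1wt against Non-injected embryos, and the last one Suv39h1mut against the same Non-injected libraries. Since they share these 2 libraries, a member that is unusual in them shows up in both, and values are given side by side. For Suv39h1wt vs Non-injected embryos the member median was -0.01 (quartiles -0.89 and 0.75), against 0.01 for the remaining autosomal genes, and 455 members were above 0 (background 50.8%). edgeR's quasi-likelihood test called 0 of 922 (background 0%, smallest adjusted p 0.723). It had 52 members at an unadjusted p under 0.05 (5.64%, background 6.15%), 21 higher (background 2.98%) and 31 lower (background 3.17%), and 90 with the replicate number as a block (9.76%, background 10.3%). The libraries did not overlap in 137 members on the higher side (background 16.9%) and 170 on the lower side (background 17.2%), and DESeq2 called 12 of 817 members (1.47%, background 1.73%), 7 higher (background 0.879%) and 5 lower (background 0.853%).

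For Suv39h1mut vs Non-injected embryos the member median was -0.04 (quartiles -0.81 and 0.91), against 0.01 for the remaining autosomal genes, and 449 members were above 0 (background 50.5%). Again edgeR's quasi-likelihood test called 0 of 922 (background 0%, smallest adjusted p 0.845). At an unadjusted p under 0.05 it had 37 members (4.01%, background 4.46%), 17 higher (background 2.21%) and 20 lower (background 2.25%), and 92 with the block (9.98%, background 10%). Non-overlapping libraries were found in 162 members on the higher side (background 18.6%) and 171 on the lower side (background 16.3%). DESeq2 called 9 of 798 members (1.13%, background 0.37%), 3 higher (background 0.192%) and 6 lower (background 0.178%). Among these 9, 4930481A15Rik, Fam110b, 2210411K11Rik and Tmem150b met the count minimum only through the group where they are high, so that share is in part set by the rule. A group had 0 counts in both libraries for 25 to 38 members, depending on the comparison, and with these at their bound the medians were 0.00, -0.01 and -0.04.

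Members that were higher in both injected groups were led by Optn, which encodes the autophagy receptor optineurin (chromosome 2, 4941688 to 4985097). Optn had 9.94 and 11.8 CPM in Suv39h1wt, 6.61 and 18.2 CPM in Suv39h1mut and 1.33 and 0.643 CPM in Non-injected libraries. All 4 injected libraries were above both Non-injected ones, at log2 fold changes of 3.46 ± 0.97 for Suv39h1wt and 3.64 ± 0.98 for Suv39h1mut. An antisense gene, 4930551O13Rik, overlaps it. The small nuclear RNA 7SK holds the elongation factor P-TEFb inactive. A copy of its gene on chromosome 6 had 2.78 and 7.29 CPM in Suv39h1wt, 1.57 and 4.24 CPM in Suv39h1mut and 0.153 and 0.0306 CPM in Non-injected libraries. It is 1 of many copies of this gene, so the assignment of its reads is uncertain. Whether this copy makes a working RNA was not tested. Slc22a30, a transporter gene (chromosome 19, 8409861 to 8479601), had 47 and 198 counts in Suv39h1wt, 198 and 117 in Suv39h1mut and 4 and 4 in Non-injected libraries.

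Zfp580, a zinc-finger gene, had 4.16 and 12.5 CPM in Suv39h1wt, 2.95 and 5.05 CPM in Suv39h1mut and 0.869 and 0.0919 CPM in Non-injected libraries, with log2 fold changes of 4.10 ± 1.41 for Suv39h1wt and 3.04 ± 1.35 for Suv39h1mut, and the lincRNA Gm15510 overlaps it. Without Non-injected replicate 1 the value for Suv39h1wt was 6.52. Ehbp1l1, a gene of membrane traffic, had 8.90 and 17.4 CPM in Suv39h1wt, 0.326 and 5.32 CPM in Suv39h1mut and 1.05 and 0.184 CPM in Non-injected libraries, so the Suv39h1mut libraries lay on both sides of the Non-injected ones. Fam110b had 7 and 2 counts in Suv39h1wt, 32 and 280 in Suv39h1mut and 0 and 0 in Non-injected libraries. Its interval holds 2 pseudogenes. Against a floor of 3 counts per Non-injected library the mean of Fam110b was at least 38.7-fold higher in Suv39h1mut, and that of 4930481A15Rik at least 54.4-fold higher. The Fam110b mean came mostly from Suv39h1mut replicate 2. Both genes met the count minimum only through Suv39h1mut, so their low counts elsewhere are in part set by the rule.

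On the lower side Ubxn1 and Dpf2 were the best detected. Ubxn1, which encodes an adaptor of the p97 ATPase (chromosome 19, 8946049 to 8950153), had 29.2 and 39.6 CPM in Suv39h1wt, 29.7 and 75.4 CPM in Suv39h1mut and 132 and 131 CPM in Non-injected libraries, from at least 1316 counts. Each injected library lay well below both Non-injected libraries, which hardly differed, with log2 fold changes of -1.94 ± 0.55 and -1.33 ± 0.54. AI462493, which starts at 8954506 on the same chromosome and does not overlap Ubxn1, had the same order, at 1.40 and 0.813 CPM in Suv39h1wt, 0.498 and 1.56 CPM in Suv39h1mut and 15.8 and 17.9 CPM in Non-injected libraries, with log2 fold changes of -3.92 ± 1.07 and -4.03 ± 1.07. Dpf2, which encodes a PHD-finger subunit of the BAF chromatin remodelling complex (chromosome 19, 5896516 to 5913010), had 15 and 11.9 CPM in Suv39h1wt, 23.5 and 30.9 CPM in Suv39h1mut and 49.9 and 47.3 CPM in Non-injected libraries. Its 3 groups did not overlap, and the log2 fold changes against Non-injected embryos were -1.85 ± 0.55 for Suv39h1wt and -0.84 ± 0.53 for Suv39h1mut.

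Among low members, Tmem150b had 0 and 4 counts in Suv39h1wt, 3 and 1 in Suv39h1mut and 509 and 41 in Non-injected libraries, but it overlaps Brsk1. Ccdc88b (chromosome 19, 6919113 to 6932701) had 20 and 38 counts in Suv39h1wt, 5 and 8 in Suv39h1mut and 149 and 503 in Non-injected libraries, with a log2 fold change of -3.65 ± 1.35 for Suv39h1wt and -6.15 ± 1.53 for Suv39h1mut. 2210411K11Rik, on chromosome 7 from 4736197 to 4741258, had 28 and 1 counts in Suv39h1wt, 0 and 0 in Suv39h1mut and 164 and 117 in Non-injected libraries. Its Non-injected mean was 3.89 CPM, so Suv39h1mut was at least 64.4-fold lower by a floor of 3 counts per library. Both Tmem150b and 2210411K11Rik met the count minimum only through the Non-injected libraries. In both comparisons the adjusted p of each of these genes was 0.723 or above in edgeR's quasi-likelihood test.

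**Figure D3:**
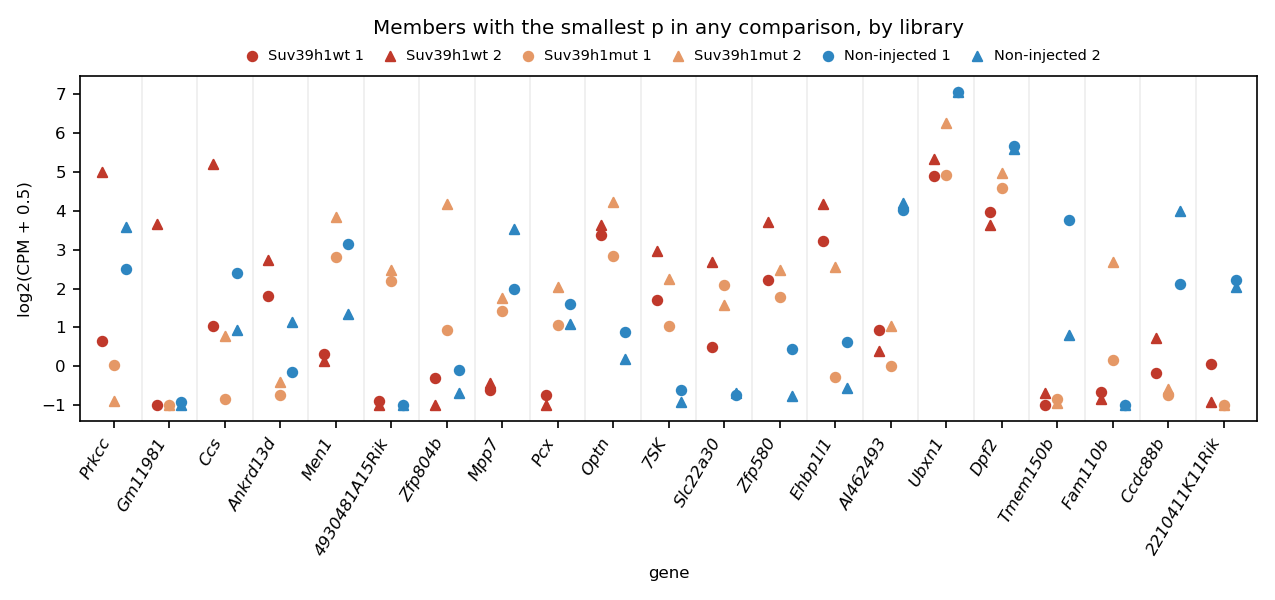
Levels in log2(CPM + 0.5) of 21 of the members with the smallest p in 1 of the 3 comparisons, with 1 point per library, circles for number 1 and triangles for number 2. Men1 and Mpp7 are lowest in both Suv39h1wt libraries; Optn, 7SK, Slc22a30 and Zfp580 are higher, and AI462493, Ubxn1 and Dpf2 lower, in all 4 injected libraries than in both Non-injected ones.

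Distance from the satellite block was then used to order the members. For Suv39h1wt vs Suv39h1mut the median log2 fold change was -0.08 for the 200 members that start below 4 Mb, 0.04 for the 329 from 4 to 6 Mb, 0.06 for the 205 from 6 to 8 Mb and -0.04 for the 188 from 8 to 10 Mb. Genes beyond stayed in the same range, at -0.04 for 888 genes from 10 to 20 Mb and 0.04 for 1691 genes in the last 10 Mb of the chromosomes. Against Non-injected embryos the 4 innermost bins had medians of -0.01, -0.10, 0.05 and 0.04 for Suv39h1wt and 0.10, -0.18, -0.05 and 0.14 for Suv39h1mut. The medians of the members showed no steady order with distance from the block, and the largest medians against Non-injected embryos were outside the members, at 0.19 and 0.20 for the genes from 10 to 20 Mb. The quartiles of every bin spanned 0.

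**Figure D4:**
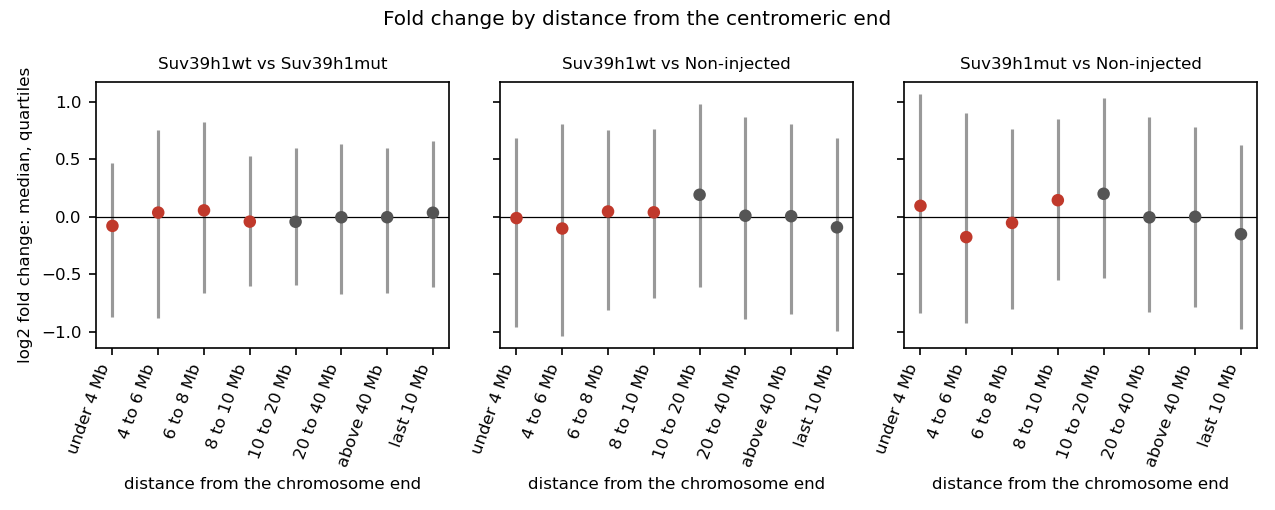
Median log2 fold change (points) and quartiles (lines) of autosomal genes by start position, for the 3 comparisons; the 4 bins of members are red and the bins beyond 10 Mb grey. All medians lie between -0.18 and 0.20, with quartiles on both sides of 0 in every bin.

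The medians of single ends lay on both sides of 0, and they were described separately for the 5 ends that are denser in genes than the remainder of their chromosome (the dense ends) and the other 14 (the sparse ends). For Suv39h1mut vs Non-injected embryos, the median of the members was below 0 on all 5 dense ends, from -0.54 on chromosome 11 and -0.44 on chromosome 19 to -0.06 on chromosome 12, and above 0 on 13 of the other 14. The 493 members of the dense ends had a median of -0.37, with 127 of 192 below 0 on chromosome 19 and 72 of 112 on chromosome 11, and the 429 members of the sparse ends had a median of 0.24. For Suv39h1wt vs Non-injected embryos the medians were -0.22 and 0.21, with all 5 dense ends below 0 and 9 of 14 sparse ends above 0. Between Suv39h1wt and Suv39h1mut they were 0.02 and -0.01.

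By library, members of the dense ends deviated from their mean over the 6 libraries by a median of -0.22 and -0.13 in Suv39h1wt, -0.22 and -0.05 in Suv39h1mut and -0.01 and 0.27 in Non-injected libraries, in log2(CPM + 0.5). Members of the sparse ends deviated by 0.12 and -0.18 in Suv39h1wt, 0.22 and -0.06 in Suv39h1mut and -0.03 and -0.37 in Non-injected libraries. For reference, the remaining autosomal genes deviated by -0.03 and -0.11 in Suv39h1wt, -0.02 and -0.04 in Suv39h1mut and -0.07 and -0.08 in Non-injected libraries. In every group the number 2 library was the higher one for the dense ends and the number 1 library for the sparse ends, and Non-injected replicate 2 was the outermost library in both. Leaving it out moved the member median for Suv39h1mut vs Non-injected embryos to 0.13. The part of library number in these differences was not tested.

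This split goes largely with gene number, since the dense ends of chromosomes 19, 11, 7 and 16 hold the most members, at 192, 112, 91 and 55. The dense end of chromosome 12 and the sparse end of chromosome 2 hold 43 members each. Their medians for Suv39h1wt vs Non-injected embryos were -0.19 and 0.72. Gene number was therefore examined over windows. The autosomes were divided into windows of 10 Mb, of which 19 are centromeric ends and 231 others hold at least 10 detected genes. Across the other windows the Spearman correlation between the number of genes and the median log2 fold change was 0.34 between the injected groups, and -0.56 for Suv39h1wt and -0.63 for Suv39h1mut against Non-injected embryos. Across the 19 ends it was 0.53, -0.19 and -0.65. Windows share libraries and the comparisons share groups, so these values describe the windows and carry no p. Most ends fell within the range of other windows: outside their 5th to 95th percentile lay the ends of chromosomes 12, 14 and 18 between the injected groups, of 2, 3, 9 and 11 for Suv39h1wt and of 6, 11 and 19 for Suv39h1mut against Non-injected embryos. That is 3, 4 and 3 of 19 ends, from medians that on chromosomes 3 and 14 rest on 14 and 15 members.

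**Figure D5:**
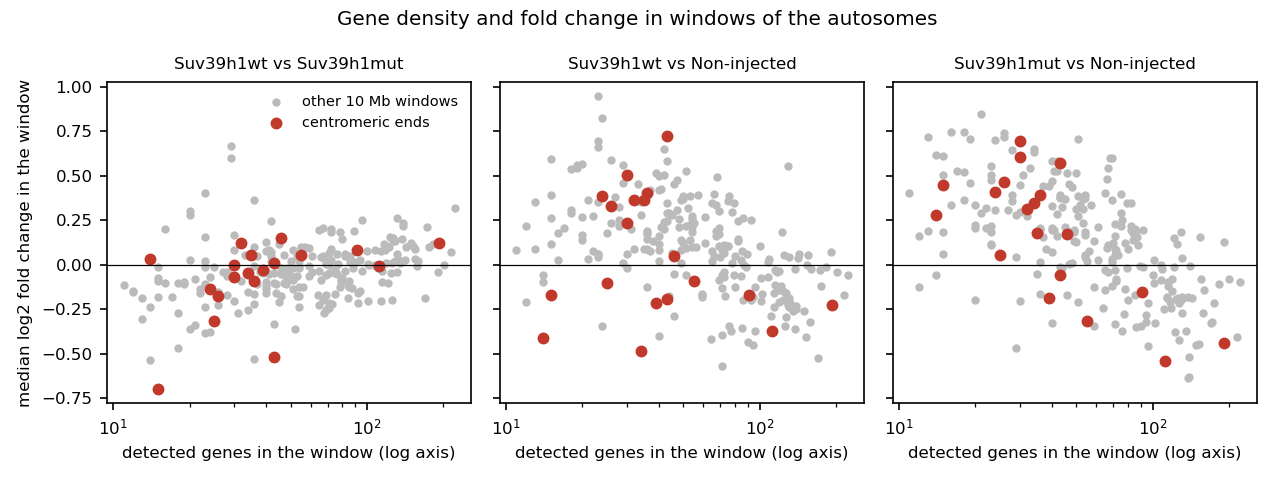
Median log2 fold change of the genes in a 10 Mb window against the number of detected genes in it (log axis), for the 3 comparisons, with the 19 centromeric ends in red and the 231 other windows in grey. Against Non-injected embryos the Spearman correlation is -0.19 over the ends and -0.56 over the other windows for Suv39h1wt, and -0.65 over the ends and -0.63 over the other windows for Suv39h1mut.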

How the data were processed

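RNA was sequenced from 2-cell embryos in 3 groups of 2 libraries, and groups were taken from the sample labels. The deposited gene table gives raw counts per gene, and the deposited repeat table gives raw counts per repeat family for the 4 injected libraries. Per the submitters' processing notes, CASAVA 1.8.2, TopHat2 2.0.14, Bowtie, HTSeq 0.6.1 and the mm9 build were used; which annotation release and strand setting were used, and how repeat reads were assigned, is not given in the sources used here. The deposited gene table also holds the authors' log2 fold changes and p-values, quoted by name, and their normalised signal with and without division by gene length, from whose ratio the length in kb was taken. All per-sample columns could be mapped to a sample.

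Counts were compared with edgeR 4.0.16 (TMM scaling, quasi-likelihood F test, Benjamini-Hochberg adjustment) in R 4.3.3, in 1 fit of all 17512 genes with at least 60 counts over the 6 libraries, and members were read from that fit. CPM used TMM-scaled library sizes. DESeq2 1.42.0, upper-quartile scaling, other low-count filters, position limits and leaving out each library were alternatives. Same-numbered libraries correlated in their deviations from the group means by 0.187, 0.132 and 0.156 over all genes for the 3 pairs of groups, so a fit with the replicate number as a block was also made. With 2 libraries a group the fit had 3 residual degrees of freedom. At the depth of these libraries counting error is small for abundant members, and the spread between libraries limits precision.

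Named genes were, per comparison, the 5 members with the smallest p in each direction at a mean of at least 1 CPM; on each autosome the first member at 10 CPM or more; the 10 members highest in CPM per kb; and examples from the gene lists. The result for 1 gene that this rule names is not reported here. The members and lists were chosen with earlier results of these data known.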

Additional observations from a re-analysis of the deposited data

How the results depend on the processing

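The member median log2 fold change lay close to 0 in each comparison and moved to either side of it under the alternatives. For Suv39h1wt vs Suv39h1mut it was -0.067 with upper-quartile scaling, -0.067 for genes that start below 5 Mb, and -0.29 to 0.21 when 1 library was left out. For Suv39h1wt vs Non-injected embryos it was -0.14 below 5 Mb, 0.077 below 20 Mb, -0.090 for protein-coding genes and -0.19 to 0.23 with 1 library left out. For Suv39h1mut vs Non-injected embryos it was 0.077 with upper-quartile scaling, -0.13 below 5 Mb, 0.086 below 20 Mb, 0.066 without chromosome 19, -0.13 for members of at least 1 CPM (chosen after seeing the data) and -0.24 to 0.30 with 1 library left out. The remaining autosomal genes spanned -0.21 to 0.15, -0.16 to 0.24 and -0.14 to 0.24 with 1 library left out, so both sets shifted; a lone library was assumed to vary like the other groups. Upper-quartile scaling placed the remaining autosomal genes at 0.12 for Suv39h1mut vs Non-injected embryos, against 0.01 with TMM, so members and remaining genes shifted together. The fit with a replicate block gave medians against Non-injected embryos of -0.059 for Suv39h1wt and 0.012 for Suv39h1mut, and it called 0 members in edgeR in each comparison. DESeq2 called 5, 12 and 9 members in the 3 comparisons (0.316%, 1.73% and 0.37% of all genes), and without a low-count filter edgeR called 2, Prkcc and Tbc1d10a, for Suv39h1wt vs Suv39h1mut, and 18 of all 26982 genes (0.0667%). The share of autosomal counts was 1.39%, 1.42% and 1.62% in Suv39h1wt, Suv39h1mut and Non-injected libraries below 5 Mb, 11.9%, 11.3% and 11.1% below 20 Mb, 4.28%, 4.31% and 4.01% without chromosome 19, and 4.0%, 3.98% and 4.18% without the 5 members with the most counts. GSAT_MM ranged from -0.90 without Suv39h1wt replicate 1 to 1.06 without Suv39h1wt replicate 2, with -0.0048 without Suv39h1mut replicate 2, and Gm11981 at 0 without Suv39h1wt replicate 2. The cause of these shifts was not tested.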
